A study of Mus musculus with 12 samples.

Results

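The genes described are 7 that encode contractile proteins of smooth muscle, namely Acta2, Actg2, Tagln, Cnn1, Tpm1, Tpm2 and Myl9, and 3 that are widely used as targets of the coactivator YAP, namely Ccn2 (named Ctgf on the array), Ccn1 (named Cyr61 on the array) and Thbs1. Every gene probe of the array whose deposited name, or whose current symbol by accession, was 1 of these 10 genes was kept. This gave 20 probes of the 41174 gene probes on the array, 15 for the contractile genes and 5 for the YAP targets, and all 20 were among the 37796 probes that were well above background on at least 1 array. The probes were taken by name without use of their measured values, but the members were chosen with earlier results of these data known.

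RNA of 12 mouse samples was labelled with Cy3 and each was hybridised once to a one-colour Agilent array of 60-base probes. MEF, the mouse embryonic fibroblasts that served as the starting cells, were 1 sample, and ES, embryonic stem cells of 129/Ola mice, were 1 sample. The 9 induced pluripotent stem (iPS) lines, all of which received the transcription factor Oct4, came from embryonic fibroblasts with Bmi1 and Oct4 (BOiPS, 2 lines), with the hedgehog ligand Shh and Oct4 (SOiPS, 1 line), with oxysterols and Oct4 (OOiPS, 2 lines) or with the hedgehog agonist purmorphamine and Oct4 (POiPS, 2 lines), or from adult tail-tip fibroblasts with oxysterol and Oct4 (OOiPS-TTF, 2 lines). For SOiPS, OOiPS and POiPS the labels name cells like neural stem cells (NSC-like) as the intermediate that received Oct4. The last sample, the Bmi1 spheres, holds embryonic fibroblasts transduced with Bmi1 and is called NSC-like in its source label, which names no Oct4, although its description field calls it iPS. Each line is named below by its factors and the number in its title. Doses, culture times, promoters and numbers of animals were not given in the sources used here, and nothing in the labels says that the lines of a group were separate experiments, so p-values measure only the spread between these samples.

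Smooth muscle actins polymerise into filaments that slide against myosin. Tropomyosins, calponin and transgelin bind along these filaments, and a regulatory light chain switches the myosin motor on. Cultured fibroblasts also build such filaments as stress fibres. Transcription of the contractile genes is driven by serum response factor (SRF) with its coactivators of the myocardin family, which bind a DNA element called the CArG box. YAP and its relative TAZ are held in the cytoplasm by the Hippo kinases, enter the nucleus in spread cells under tension, and act through TEAD proteins on genes such as Ccn2, Ccn1 and Thbs1, whose secreted products bind integrins and matrix.

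Sequences are shown for an Acta2 probe and for the tropomyosin probes on which the results turn, all of which cross an intron, since these families have near-identical members. The probes are given 5′ to 3′ in the direction of the transcript, as printed in the array's own design columns, with positions in the mm7 build named there. The Acta2 probe A_51_P450957 lies at chr19:33949738-33952992 on the minus strand and crosses an intron. Whether it also bound RNA of other actin genes was not tested.
Acta2 A_51_P450957: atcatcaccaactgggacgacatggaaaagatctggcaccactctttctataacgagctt

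The tropomyosin probes that fell in the iPS lines, A_52_P532910 for Tpm1 at chr9:67064287-67065357 and A_52_P418477 for Tpm2 at chr4:43533092-43533242, also lie on the minus strand and cross an intron. They read the same stretch of the 2 transcripts in part: capitals mark the 27 identical bases of the 33 over which they overlap without gaps, which is 81.8%. Whether either probe also bound RNA of the other gene was not tested.
Tpm1 A_52_P532910: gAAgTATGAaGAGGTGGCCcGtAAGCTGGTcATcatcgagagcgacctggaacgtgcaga
Tpm2 A_52_P418477: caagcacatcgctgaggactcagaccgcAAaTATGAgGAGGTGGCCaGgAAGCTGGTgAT

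Promoter windows of 250 bases before each gene's start were read from RefSeq (GRCm38.p6) and searched on both strands. The CArG box was taken only in its strict form, CC, then 6 bases that are A or T, then GG. Boxes that depart from this form were not counted. The TEAD motif was CATTCC, which reads GGAATG on the other strand. Of the 10 genes, 6 had a window: Myl9, Ccn1, Tpm2, Cnn1, Tpm1 and Acta2. A CArG box was in 1 of the 6, Myl9, and in 1.47% of all 32851 windows. The TEAD motif was in 3 of the 6, Ccn1, Tpm1 and Acta2, and in 12.6% of all windows. The matches of Tpm1 and Acta2 lie past the outermost annotated start of their gene, so those bases are also part of the annotated gene. The windows of Myl9 (chr2:156775214-156775407, plus strand, CArG box in capitals) and Ccn1 (chr3:145649986-145650235, minus strand, TEAD motif in capitals) are shown, up to the outermost annotated start, as the pair that hold the element named for their own group. Of the window, 38 bases for Acta2 and 0 for Tpm1 lie before the outermost annotated start. A match is a stretch of letters and not evidence of binding, and the lack of a match does not show that a gene lacks the element.
Myl9: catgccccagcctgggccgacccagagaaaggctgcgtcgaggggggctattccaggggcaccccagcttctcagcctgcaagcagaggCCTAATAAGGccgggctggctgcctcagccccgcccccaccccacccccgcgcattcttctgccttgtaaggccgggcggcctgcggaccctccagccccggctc
Ccn1: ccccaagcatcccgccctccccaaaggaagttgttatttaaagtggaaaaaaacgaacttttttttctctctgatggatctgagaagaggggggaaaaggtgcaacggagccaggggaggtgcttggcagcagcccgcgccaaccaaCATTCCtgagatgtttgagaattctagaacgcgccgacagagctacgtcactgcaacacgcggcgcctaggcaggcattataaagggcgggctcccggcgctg

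Levels are log2 processed signals minus the 75th percentile of the same array, so that a level of 0 is the brightness of the probe at that percentile, and they are compared between samples for 1 probe only, never between probes. The 75th percentile lay between 1322 and 2148 intensity units, and 58.4% to 80.0% of spots were well above background. Cell identity followed the labels for ES, MEF and the iPS lines: the median level of 11 pluripotency markers was 3.63 in ES, 3.41 to 4.09 in the iPS lines, -5.89 in MEF and -5.51 in the spheres, and the median of 14 fibroblast markers was 3.26 in MEF and -3.12 to 0.24 in the iPS lines. In the spheres the neural stem cell gene Nes had a level of 0.46, against 0.38 in MEF, and the other defining marker, Sox2, was at -9.09, so these markers did not bear out the NSC-like label. The vascular smooth muscle gene Myh11 was at -0.94 in MEF and between -1.64 and -0.59 in the iPS lines, and did not pass the test between them (adjusted p = 0.718 in limma). Of the 9 vascular smooth muscle and pericyte markers, Smtn and Lmod1 fell from MEF, 6 had a negative difference and the median difference was -2.15. Their part in the results was not tested.

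On most of the 20 probes the starting fibroblasts had a higher level than the iPS lines made from them and from tail-tip cells. In 10 of the 20 probes the iPS lines were lower than MEF in limma with a Benjamini-Hochberg adjusted p below 0.05, and in 0 they were higher. Over all probes tested, 2.6% were lower by the same rule, 6.61% were higher and 9.21% differed in either direction. At an unadjusted p below 0.05 it was 15 of the 20, against 25.8% of all probes. Of the probes that differed, 71.8% were higher in the lines, a share that was 55.2% with normexp and 59.2% with quantile normalization, which put the median of all probes at 0.26 and 0.08. With dim signals raised to the highest background limit of any array, an alternative chosen after seeing the data, the share was 47.9% (1924 probes higher and 2096 lower), and the median of all probes was 0.04. The 10 probes belong to 8 genes: Acta2, Tagln, Cnn1, Actg2, Tpm1 and Tpm2 among the contractile genes and Ccn2 and Thbs1 among the YAP targets. Myl9 and Ccn1 had no probe that passed. A gene counts here if any of its probes passed, and no such share of genes was counted over the array. By the brightest probe of each gene, 3 of the 7 contractile genes and 1 of the 3 YAP targets fell. Acta2, Tagln, Tpm1 and Thbs1 did not pass on that probe (adjusted p = 0.115, 0.724, 0.749 and 0.164 in limma). Thbs1 counts only through A_52_P337086, whose call held in 7 of 20 other settings. In 16 of the 20 probes all 9 lines lay below MEF, which was so for 18.6% of all probes. The median difference over the 20 probes was -4.04 on the log2 scale, against 0.37 over all probes. MEF was a single array, and the model assumed that it varies as the lines do. RNA was taken from bulk cultures, in which fewer cells of a type and less RNA per cell cannot be told apart.

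**Figure D1:**
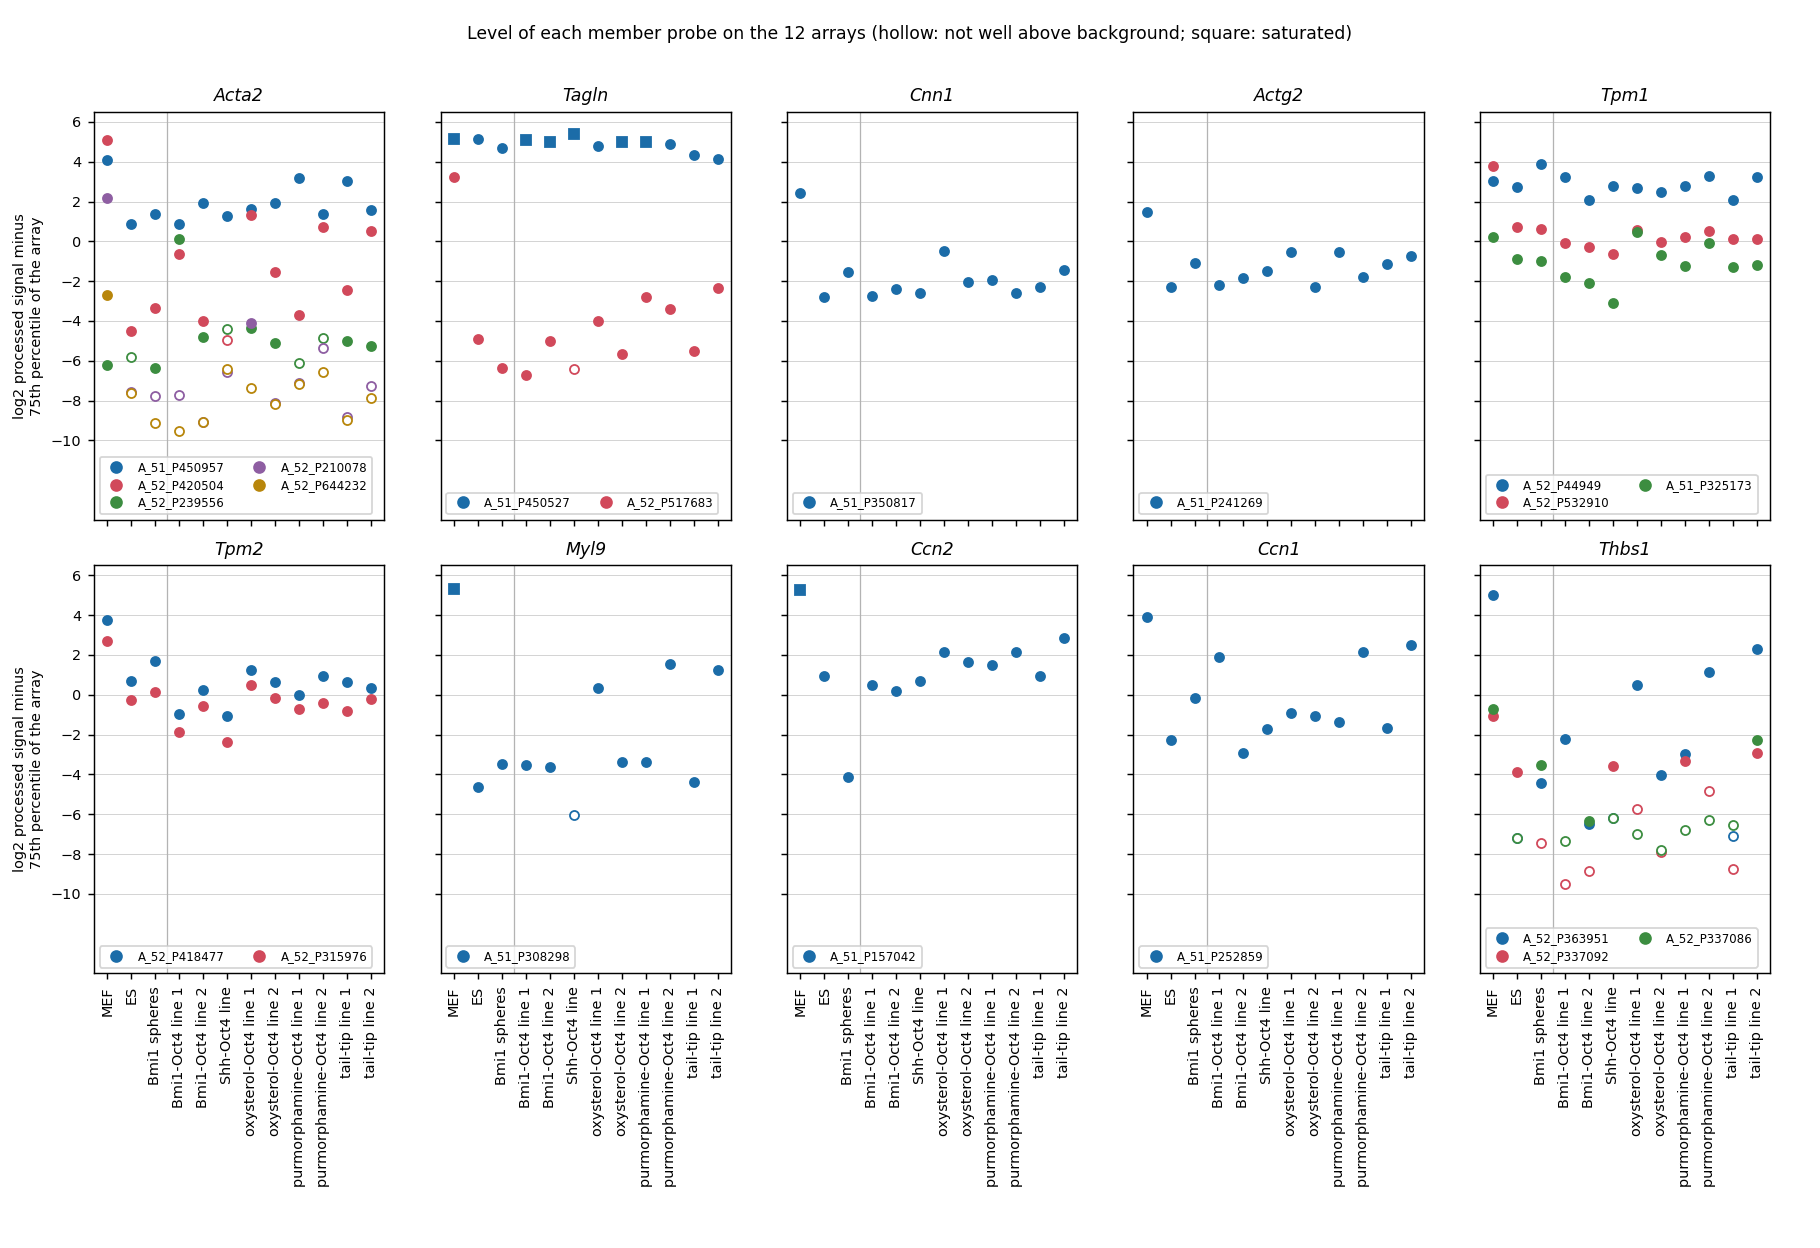
Level of each probe of the 10 genes (log2 processed signal minus the array's 75th percentile, vertical axis) on each of the 12 arrays (horizontal axis), with hollow points for spots not well above background and squares for saturated spots. Cnn1, at 2.42 in MEF, lay between -2.76 and -0.48 in the iPS lines, whereas Myl9 ranged from -6.03 to 1.54 among the lines.

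The arrays were spread over 3 slides, with MEF, ES and both Bmi1-Oct4 lines on 1 of them. When slide entered the model as a fixed term, 8 of the 10 probes still passed, while the Tpm2 probe A_52_P315976 (adjusted p = 0.0771 in limma) and the Thbs1 probe A_52_P337086 (adjusted p = 0.0783 in limma) did not. Within the slide of MEF, where the comparison is of 2 lines with MEF, the 10 probes had log2 differences from -10.61 (Acta2 A_52_P210078) to -3.48 (Actg2), and none of the probes of the array passed the adjusted test, which had 1 residual degree of freedom there. Fibroblast markers moved with these genes: of the 14 measured, 4 fell in the iPS lines (Thy1, Postn, Fap and Fbn1), and their median difference from MEF was -4.63. The part of that shift in the results for the contractile and YAP target genes was not tested.

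Acta2 encodes smooth muscle α-actin, the isoform that marks contractile fibroblasts and vascular smooth muscle, and it was read by 5 probes that did not give 1 answer. The probe A_52_P420504, at chr19:33942803-33942862 and printed in 10 spots, had a level of 5.10 in MEF, -4.48 in ES and -3.37 in the spheres. Among the lines it was lowest at -4.94 in the Shh-Oct4 line, where the spots were not well above background, had a median of -1.52 and was highest at 1.31 in oxysterol-Oct4 line 1. All lines lay below MEF, yet they spread so widely that the difference of -6.74 (SE 2.13, 9 lines against 1 sample) had an adjusted p of 0.0770 in limma. It passed with normexp background correction (difference -6.37, adjusted p = 0.0345 in limma). The probe A_52_P210078, at chr19:33942440-33942499, was at 2.20 in MEF and between -9.08 and -4.10 in the lines, with oxysterol-Oct4 line 1 as the only line well above background. It fell by 9.33 on the log2 scale (SE 1.53, adjusted p = 0.00438 in limma). With dim signals raised to the highest background limit the difference was -6.38.

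The Acta2 probe printed above, A_51_P450957, was at 4.06 in MEF, 0.85 in ES and 1.37 in the spheres. The lines ran from 0.88 in Bmi1-Oct4 line 1 through a median of 1.62 to 3.18 in purmorphamine-Oct4 line 1, and its difference of -2.19 (SE 0.793) had an adjusted p of 0.115 in limma. It ordered the lines differently from A_52_P420504, on which purmorphamine-Oct4 line 1 was among the lowest at -3.68. The probe A_52_P644232, at chr19:33954688-33954747, was well above background in MEF alone, at -2.70, and the iPS lines were at least 7.73-fold lower (adjusted p = 0.0154 in limma). On the last, A_52_P239556 at chr19:33941939-33941997, MEF was at -6.22, no line lay below it and the difference of 1.80 (SE 1.68) did not pass (adjusted p = 0.515 in limma). So 2 of the 5 Acta2 probes fell, and 4 of the 5 had every line below MEF.

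Actg2 encodes smooth muscle γ-actin, the enteric isoform, and was read by 1 probe. Its level was 1.47 in MEF, -2.29 in ES and -1.08 in the spheres, and from -2.28 in oxysterol-Oct4 line 2 through a median of -1.49 to -0.51 in oxysterol-Oct4 line 1. MEF stood 1.98 above the highest line, and the lowest line and ES were within 0.1 of each other. The iPS lines were 7.28-fold lower than MEF (log2 difference -2.86, SE 0.719, adjusted p = 0.0339 in limma). The call was lost without Bmi1-Oct4 line 2 (adjusted p = 0.0518 in limma) or without purmorphamine-Oct4 line 2 (adjusted p = 0.0517 in limma).

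Tropomyosins coil along the actin filament and control how myosin reaches it. The probe A_52_P532910 of Tpm1 was at 3.78 in MEF, 0.71 in ES and 0.64 in the spheres. The lines held together closely, from -0.64 in the Shh-Oct4 line through a median of 0.11 to 0.55 in oxysterol-Oct4 line 1. They were 13.3-fold lower than MEF (log2 difference -3.73, 95% interval -4.80 to -2.66, adjusted p = 0.00102 in limma), and MEF lay 3.23 above the highest of them.

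The other Tpm1 probes did not show that gap. A_52_P44949, at chr9:67054531-67054590, was at 3.03 in MEF and from 2.07 to 3.30 in the lines (difference -0.30, SE 0.544, adjusted p = 0.749 in limma), with 6 of the 9 lines below MEF. A_51_P325173, which crosses an intron at chr9:67059621-67061176, was at 0.23 in MEF and from -3.11 to 0.49 in the lines (difference -1.45, SE 1.05, adjusted p = 0.406 in limma). Tpm1 is spliced into many isoforms, and the data do not say which isoform each probe reads.

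For Tpm2 both probes fell. A_52_P418477 was at 3.73 in MEF, 0.68 in ES and 1.70 in the spheres, and from -1.07 in the Shh-Oct4 line through 0.34 to 1.24 in oxysterol-Oct4 line 1. A_52_P315976, at chr4:43532218-43532277, was at 2.72 in MEF, -0.27 in ES and 0.12 in the spheres, and from -2.38 in the Shh-Oct4 line through -0.58 to 0.50 in oxysterol-Oct4 line 1. On both, MEF was above every other sample and the Shh-Oct4 line was the lowest of all 12. The lines were 11.4-fold lower on the first (adjusted p = 0.0245 in limma) and 11.0-fold lower on the second (adjusted p = 0.0371 in limma). The second call was lost without Bmi1-Oct4 line 2, without either purmorphamine-Oct4 line or without tail-tip line 1, with adjusted p from 0.0517 to 0.0574 in limma.

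Cnn1 encodes calponin, which binds actin and slows the myosin motor. Its probe, at chr9:21988172-21988231, had a level of 2.42 in MEF, -2.82 in ES and -1.52 in the spheres. The lines ran from -2.76 in Bmi1-Oct4 line 1 through a median of -2.29 to -0.48 in oxysterol-Oct4 line 1, all above ES and all well below MEF. Cnn1 was 22.3-fold lower in the iPS lines than in MEF (log2 difference -4.48, SE 0.744, 95% interval -6.13 to -2.83, adjusted p = 0.00476 in limma).

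Tagln encodes transgelin (SM22α), a calponin-related actin-binding protein, and its probes disagreed. A_52_P517683, at chr9:45888956-45889015, was at 3.24 in MEF, -4.89 in ES and -6.38 in the spheres, and from -6.70 in Bmi1-Oct4 line 1 through -5.02 to -2.32 in tail-tip line 2. It fell by 7.88 on the log2 scale (SE 1.50, adjusted p = 0.00939 in limma), and MEF stood 5.55 above the highest line. A_51_P450527, at chr9:45888137-45888196, was between 4.13 and 5.42 on all 12 arrays and was saturated in MEF and in 5 of the lines. Its difference of -0.30 (SE 0.495) had an adjusted p of 0.724 in limma, and with so many saturated spots it gives no fold.

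Myl9 encodes the regulatory light chain of smooth muscle and non-muscle myosin. Its probe, at chr2:156522455-156522514, was at 5.32 in MEF, where it was saturated, at -4.63 in ES and at -3.47 in the spheres. Of the 9 lines, 3 had high levels, namely purmorphamine-Oct4 line 2 at 1.54, tail-tip line 2 at 1.25 and oxysterol-Oct4 line 1 at 0.34, and the other 6 were between -6.03 and -3.38. The groups did not overlap and the mean of the lines was at least 177-fold below MEF. With that spread the difference of -7.68 (SE 2.52, 95% interval -13.27 to -2.08) missed the threshold, at an adjusted p of 0.0871 in limma, and passed with normexp background correction (difference -7.04, adjusted p = 0.0381 in limma).

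Ccn2 encodes connective tissue growth factor, a secreted matrix protein and the most used read-out of YAP. Its probe, at chr10:24349402-24349461, was at 5.25 in MEF, where it was saturated, at 0.93 in ES and at -4.15 in the spheres. The lines ran from 0.19 in Bmi1-Oct4 line 2 through a median of 1.51 to 2.85 in tail-tip line 2, so that ES fell within their range and the spheres far below it. Ccn2 was at least 14.4-fold lower in the iPS lines than in MEF (log2 difference -3.85, SE 0.887, adjusted p = 0.0240 in limma).

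Ccn1 encodes CYR61, a related secreted protein that binds integrins. Its probe, at chr3:145544387-145544446, was at 3.89 in MEF, -2.29 in ES and -0.17 in the spheres. Among the lines it fell into a high set of 3, with tail-tip line 2 at 2.51, purmorphamine-Oct4 line 2 at 2.15 and Bmi1-Oct4 line 1 at 1.89, and the other 6 lay between -2.94 and -0.90. All lines were below MEF, but the difference of -4.24 (SE 1.88, 95% interval -8.40 to -0.08) had an adjusted p of 0.186 in limma.

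Thbs1 encodes thrombospondin 1, a large matrix glycoprotein that activates TGF-β. On the probe A_52_P363951, at chr2:117866887-117866946, MEF was at 4.99, the spheres were at -4.46 and ES, at -7.21, was not well above background. The lines covered a wide range, from -7.08 in tail-tip line 1 through a median of -2.95 to 2.28 in tail-tip line 2, and the difference from MEF of -7.78 (SE 3.24) had an adjusted p of 0.164 in limma. The probe A_52_P337086, at chr2:117863442-117863501, was at -0.73 in MEF and from -7.81 to -2.26 in the lines, and it fell by 5.56 (SE 1.52, adjusted p = 0.0474 in limma). Of the lines, Bmi1-Oct4 line 2 and tail-tip line 2 were well above background on it, and with dim signals raised to the highest background limit the difference was -3.24. Leaving out any line other than tail-tip line 2 ended this call, with adjusted p from 0.0593 to 0.0714 in limma. The probe A_52_P337092, which crosses an intron at chr2:117861824-117862004, was at -1.06 in MEF and from -9.49 to -2.94 in the lines (difference -5.10, SE 2.46, adjusted p = 0.223 in limma). With dim signals raised in the same way, its difference was -2.82 and passed (adjusted p = 0.00715 in limma).

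**Figure D2:**
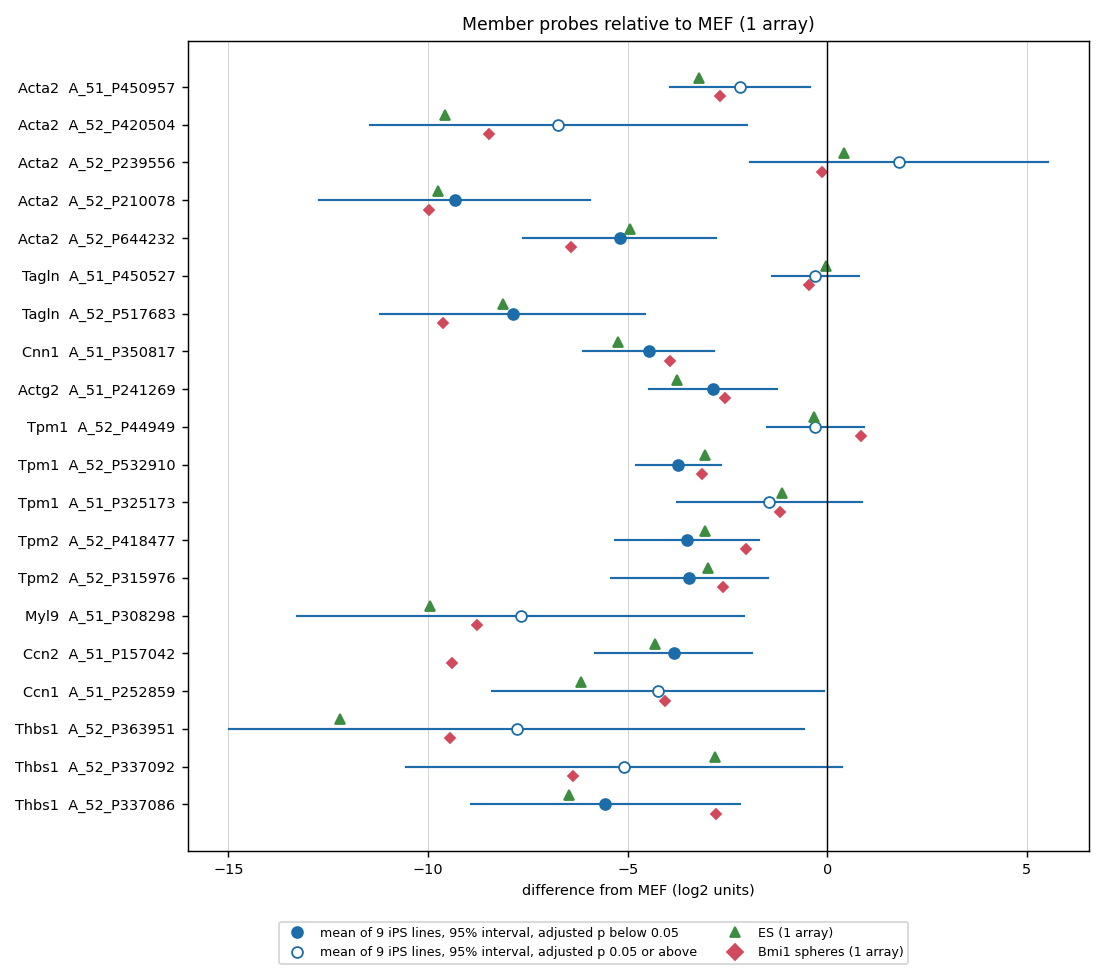
Difference from MEF on the log2 scale for the 20 probes, as the mean of the 9 iPS lines with its 95% interval from limma (circles, filled where the adjusted p was below 0.05), and for the single ES (triangles) and sphere (diamonds) arrays. The filled points are the 10 probes that fell, from -9.33 for Acta2 A_52_P210078 to -2.86 for Actg2, and the spheres' Ccn2 diamond at -9.40 lies far left of the interval of the lines.

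ES and the spheres were also low in these genes, and with 1 array each their differences from MEF had no test. ES was at least 2-fold below MEF on 17 of the 20 probes and above it by that much on 0, against 23% of all probes that were lower by this rule. The spheres were at least 2-fold below MEF on 17 of the 20, against 18.8% of all probes. For Thbs1 (A_52_P363951) ES was at least 1306-fold below MEF, for Myl9 at least 987-fold and for Ccn2 at least 20.04-fold. For Ccn2 the spheres were at least 676-fold below MEF, for Acta2 (A_52_P210078) at least 545-fold and for Myl9 at least 440-fold. The comparisons with MEF share the same MEF array.

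Between the iPS lines and ES no probe of the 10 genes passed the test in either direction, where 0.0265% of all probes did (0.0212% lower and 0.0053% higher), and 0 of the 20 had an unadjusted p below 0.05, against 4.53% of all probes. The intervals are wide, so that the data do not show equal levels. For Cnn1 the lines were 0.76 above ES with a 95% interval from -0.89 to 2.41, for Ccn2 0.48 above with an interval from -1.49 to 2.45, and for Tpm1 A_52_P532910 0.67 below with an interval from -1.73 to 0.40. On Acta2 A_51_P450957, Cnn1, Actg2 and Thbs1 A_52_P363951 all 9 lines lay above ES, and on Tpm1 A_52_P532910 all 9 lay below it. For Actg2 the gap was slight, with the lowest line at -2.282 and ES at -2.289. ES was 1 array, and the share of all probes with ES outside the range of the lines was not counted. The order is therefore given as a description only. For Thbs1 A_52_P363951, dim in ES, the mean of the lines was at least 5.92-fold higher.

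Between the iPS lines and the spheres 1 of the 20 probes passed, Ccn2, which was higher in the lines, where 4.83% of all probes were higher and 7.24% differed in either direction. The difference was 5.56 on the log2 scale (SE 0.887, 95% interval 3.59 to 7.52, adjusted p = 0.00355 in limma), or 47.0-fold, and all 9 lines were above the spheres. Within the slide of the spheres, against 3 lines, the difference was 5.92 with an adjusted p of 0.0694 in limma. Without tail-tip line 2 2 probes passed, the second being Thbs1 A_52_P337086, which was lower in the lines than in the spheres. On Tpm1 A_52_P44949 the spheres were at 3.89 and on Tpm2 A_52_P418477 at 1.70, above all lines on both, and these differences did not pass (adjusted p = 0.261 and 0.341 in limma). Set against ES, with no test, the spheres were at least 2-fold lower on 3 probes (Ccn2, Tagln A_52_P517683 and Thbs1 A_52_P337092; 21% of all probes) and at least 2-fold higher on 9 (29.1% of all probes).

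No probe of these genes separated the iPS groups in the adjusted tests. The F-test over the 5 iPS groups called 0 of the 20 probes, and the background was 0%. At an unadjusted p below 0.05 it gave 2 of the 20, against 9.05% of all probes. Bmi1-Oct4 lines against the lines made from embryonic fibroblasts with a hedgehog activator gave 0 of 20 after adjustment in limma (background 0%) and 2 at an unadjusted p below 0.05 (background 10.4%). Lines from tail-tip against those from embryonic fibroblasts, both made with oxysterol and Oct4, gave 0 after adjustment in limma (background 0%) and 0 at an unadjusted p below 0.05 (background 6.54%). Groups had 1 or 2 lines each, and the model had 4 residual degrees of freedom.

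Within groups, lines that carry the same label stood far apart on some probes. For Thbs1 (A_52_P363951), tail-tip line 2 exceeded tail-tip line 1 by 9.36 on the log2 scale, with line 1 not well above background, and purmorphamine-Oct4 line 2 exceeded line 1 by 4.08. The order was the other way for oxysterol-Oct4, where line 2 was 4.53 below line 1, and for Bmi1-Oct4, where it was 4.25 below. For Acta2 (A_52_P420504) line 2 minus line 1 was -3.34 for Bmi1-Oct4, -2.84 for oxysterol-Oct4, 4.40 for purmorphamine-Oct4 and 2.97 for tail-tip. The same signs were seen for Ccn1, at -4.83, -0.19, 3.54 and 4.19 in that order, and for Myl9, at -0.08, -3.72, 4.95 and 5.65. The -0.19 and -0.08 are too small to give a sign much weight. On Acta2 A_51_P450957 the signs were reversed, at 1.04, 0.33, -1.78 and -1.48. Clone numbers are names and have no order, and each difference is of 1 array against 1, with no test.

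Other members differed less between such lines. For Ccn2 the differences were -0.32, -0.51, 0.63 and 1.90, for Tpm1 A_52_P532910 they were -0.16, -0.60, 0.30 and 0.00, and for Cnn1 0.39, -1.56, -0.66 and 0.84. Counted over the 20 probes, tail-tip line 2 was at least 2-fold above line 1 on 9 and below it on 1, where 15.8% and 14.4% of all probes were. Oxysterol-Oct4 line 2 was at least 2-fold below line 1 on 8 and above it on 0 (15.9% and 19.9% of all probes). Purmorphamine-Oct4 line 2 was above line 1 on 5 and below it on 3 (12.8% and 13.3%), and Bmi1-Oct4 line 2 was above on 4 and below on 5 (16.4% and 14.6%).

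Fibroblast markers differed between the same lines. Their median level over 14 genes was -0.71 in Bmi1-Oct4 line 1 and -2.80 in line 2, -0.54 in oxysterol-Oct4 line 1 and -2.49 in line 2, -3.12 in purmorphamine-Oct4 line 1 and 0.20 in line 2, and -2.32 in tail-tip line 1 and 0.24 in line 2. On 9 of the 20 probes the line with the higher fibroblast median had the higher level in all 4 pairs, namely on Acta2 A_52_P420504 and A_52_P210078, the 3 Tpm1 probes, Myl9, Ccn1, Ccn2 and Thbs1 A_52_P363951. Some of these pairs hardly differed. For Tpm1 A_52_P532910 the tail-tip lines differed by only 0.00 after rounding, and line 2 minus line 1 was -0.16 for Bmi1-Oct4. It was also small for Myl9 in Bmi1-Oct4 (-0.08), Tpm1 A_51_P325173 in tail-tip (0.09) and Ccn1 in oxysterol-Oct4 (-0.19). On Acta2 A_51_P450957 the line with the higher fibroblast median had the lower level in all 4 pairs. Line 2 minus line 1 was 1.04, 0.33, -1.78 and -1.48 there, and on the other 10 probes the pairs were mixed. These counts were made for the 20 probes only, so no share over all probes stands beside them. They do not show that these genes went with the fibroblast markers more often than other genes did. Acta2 A_52_P210078 was well above background in only 1 line, oxysterol-Oct4 line 1, so its order in the other pairs was read from dim spots. Between 8 and 12 of the 14 markers were well above background in the lines, and 10 in ES. The median of the pluripotency markers stayed between 3.41 and 4.09 over the same lines. The part of fibroblast RNA in these differences was not tested.

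**Figure D3:**
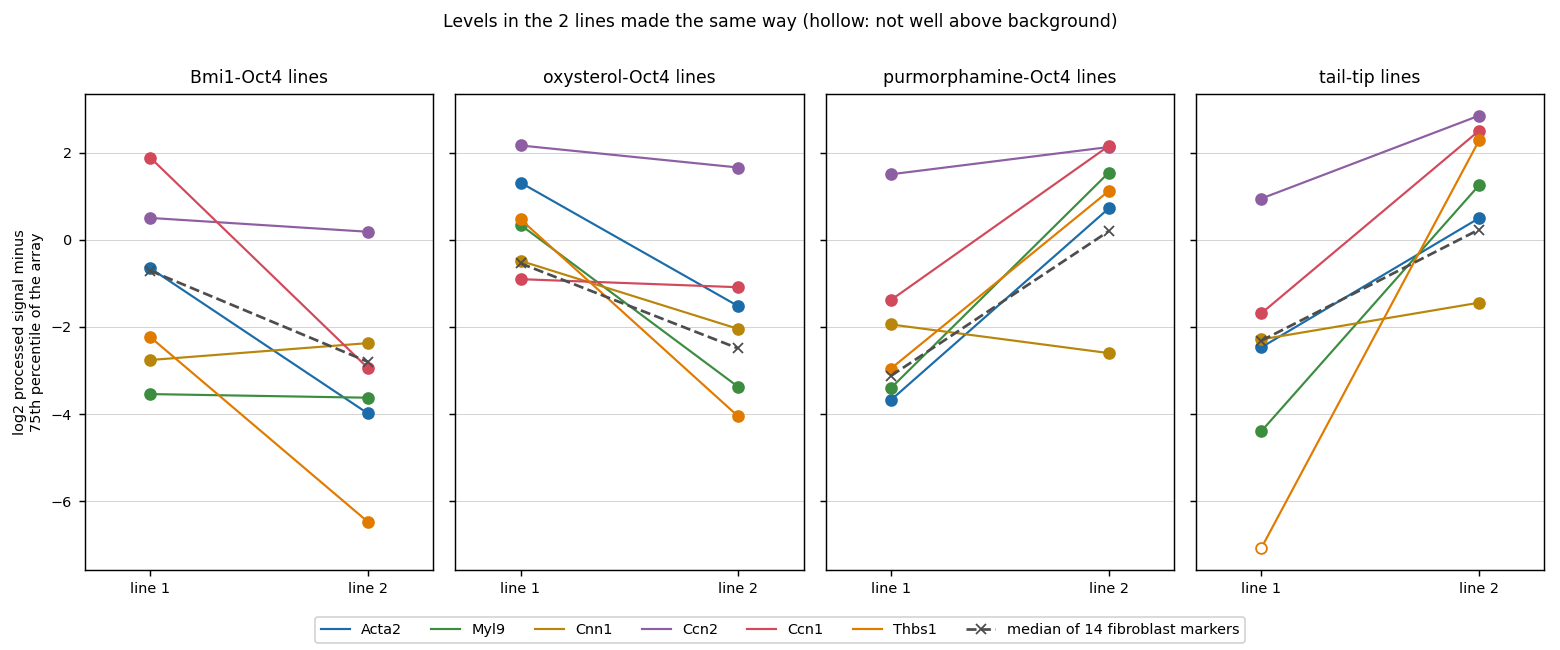
Levels of 6 probes (log2 processed signal minus the array's 75th percentile, vertical axis) in line 1 and line 2 (horizontal axis) of the 4 iPS groups that have a pair of lines, 1 panel a group, with the median of 14 fibroblast markers as a dashed line. In the tail-tip panel Thbs1 goes from -7.08 to 2.28 and the fibroblast median from -2.32 to 0.24, whereas in the oxysterol-Oct4 panel the marked probes and the fibroblast median all go down. Acta2 is drawn by A_52_P420504. Its probe A_51_P450957, which ordered the lines of each pair the other way, is not drawn.

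The regulators of the contractile programme did not pass the test between the iPS lines and MEF. Of 8 genes listed for SRF and the myocardin family, 0 passed and 8 had a negative difference, with a median of -2.17 against 0.37 over all probes. Srf was at 3.80 in MEF and from 1.93 through 2.32 to 2.96 in the lines (difference -1.39, adjusted p = 0.0950 in limma). Myocd, which encodes myocardin, was at 0.91 in MEF and from -3.52 to -0.33 in the lines (difference -2.72, adjusted p = 0.186 in limma), and a dimmer probe of it had a difference of 2.84. Mrtfa and Mrtfb, which encode its relatives that respond to actin, had differences of -0.89 (adjusted p = 0.600 in limma) and -2.07 (adjusted p = 0.217 in limma). Their dimmer probes had differences of 0.73 for Mrtfa and -3.24 for Mrtfb. Each gene outside the 10 is given by its brightest probe. For these lists, the share over all probes tested, not only the brightest of each gene, was 2.6% lower and 6.61% higher by the same adjusted test.

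Of 18 genes listed for the Hippo and YAP pathway 2 fell and 0 rose, with a median of -0.80. Lats2, a kinase that inactivates YAP, fell by 4.61 (SE 1.27, adjusted p = 0.0489 in limma), and Amot, which holds YAP outside the nucleus, fell by 2.42 (SE 0.512, adjusted p = 0.0163 in limma). Yap1 itself was at -0.57 in MEF and from -2.98 through -1.28 to -0.68 in the lines (difference -0.85, adjusted p = 0.469 in limma). Wwtr1, which encodes TAZ, had a difference of -0.56 on its brightest probe (adjusted p = 0.500 in limma) and -2.46 on another. The TEAD genes had differences of -0.77 for Tead1, 0.58 for Tead2, 0.08 for Tead3 and 1.49 for Tead4, with adjusted p between 0.234 and 0.971 in limma. Dimmer probes had differences of -3.36 and -0.52 for Tead1 and 0.40 for Tead2.

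Further genes of the same programmes were mixed. Of 25 other contractile and cytoskeletal genes 5 fell and 1 rose, with a median of -0.71. Smtn, which encodes smoothelin, fell by 3.52, Lmod1, a leiomodin that nucleates actin in smooth muscle, fell by 2.93, and Actn1, the cross-linker α-actinin, fell by 2.92 (adjusted p = 0.00747, 0.0172 and 0.0114 in limma). Des, which encodes the intermediate filament protein desmin, rose by 4.04 (adjusted p = 0.000575 in limma). Of 20 other YAP targets 3 fell, with differences of -3.56 for Crim1, -2.50 for Myof and -2.46 for Dock5 (adjusted p = 0.0223, 0.0414 and 0.0460 in limma), and 18 had a negative difference, with a median of -2.48. Dlc1 alone rose, by 2.16 (adjusted p = 0.0234 in limma), on a probe saturated on 9 arrays, while its other probes had differences of -2.26 and -3.65.

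Of 7 other members of the CCN and thrombospondin families 1 fell, Ccn5, with a difference of -9.77 (adjusted p = 0.00833 in limma) and 1 line well above background. Of 10 genes listed for TGF-β, 1 fell, the ligand gene Tgfb2, with a difference of -4.74 (SE 1.11, adjusted p = 0.0257 in limma), and 9 had a negative difference, with a median of -5.15. Among the fibroblast markers Thy1 fell by 4.61 (adjusted p = 0.00252 in limma), while the brightest probe of Col1a1 had a difference of -0.61 (adjusted p = 0.533 in limma) and its others -7.25 and -7.08. Pluripotency genes went the other way, with 10 of 11 higher in the lines and Pou5f1 up by 10.29 (adjusted p = 8.32e-07 in limma). Of 11 control genes 1 rose, Polr2a, 5 had a negative difference, and their median difference was 0.06. They were not all flat. Hprt, saturated in MEF, was at least 30.9-fold lower in the lines (difference -4.95, adjusted p = 0.106 in limma). B2m had a difference of -2.10 (adjusted p = 0.264 in limma). Among skeletal and cardiac muscle markers Myod1 had a difference of 0.65 (adjusted p = 0.357 in limma).

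**Figure D4:**
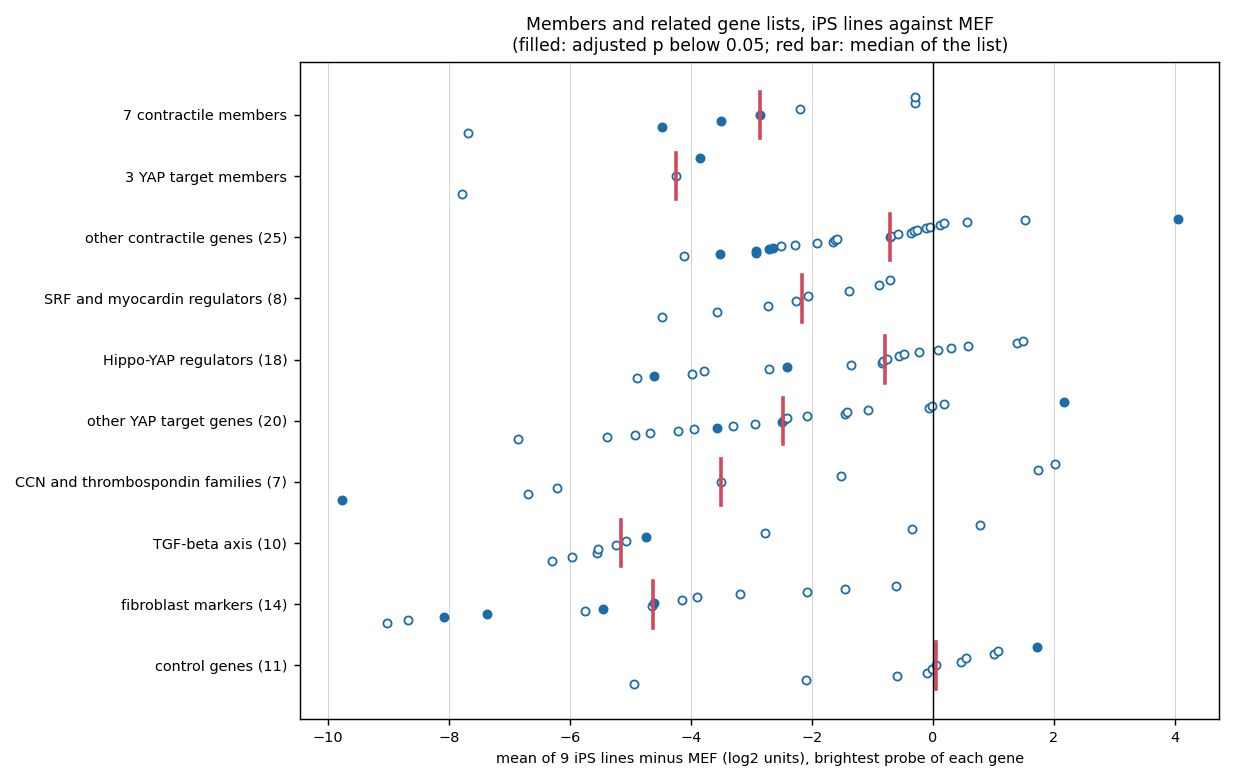
Difference of the iPS lines from MEF on the log2 scale for the brightest probe of each gene (points, filled where the adjusted p in limma was below 0.05), for the 10 genes and 8 other lists, with a red bar at each list's median. The SRF and myocardin list has no filled point and a median of -2.17, and the control genes have a median of 0.06, with Hprt at -4.95.

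The genes outside the 10 whose levels most resembled theirs over the 12 arrays were looked up among 19967 genes well above background on at least 6 arrays, as a description only, since MEF alone weighs heavily in such a correlation. For the mean standardised profile of the 7 contractile genes the closest were Hand2 (Pearson r = 0.940), Fkbp10 (0.938), Ext1 (0.934), 0610042G04Rik (0.921) and Irx1 (0.920). For the mean profile of the 3 YAP targets they were Prss23 (0.976), Grem1 (0.937), Gpr176 (0.935), H4c14 (0.922) and NAP103072-1 (0.921). The arrays share slides and a common scaling, and no p-value is attached to these values.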

How the data were processed

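The deposited intensity values are processed signals from Agilent Feature Extraction 9.5.3.1, background-subtracted and not scaled between arrays, per the file headers. The flags for spots well above background, saturated or outlying were also deposited and come from the same program; how they were used by the authors is not given in the sources used here. Each array had 45018 spots, 43379 of them for genes. Outlier spots were left out, replicate spots were averaged as log2 processed signal, and the array's 75th percentile was subtracted. RefSeq names were taken by accession for 22951 probes and by symbol or synonym for 9768. The other 8455 probes stayed under their deposited names.

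Probes well above background on at least 1 array were fitted in R 4.3.3 with limma 3.58.1 (lmFit and eBayes), with Benjamini-Hochberg adjustment over all probes tested and a threshold of 0.05. The iPS lines were 1 class of 4 (8 residual degrees of freedom) against MEF, ES and spheres, and 5 of 8 groups (4 residual degrees of freedom) against each other. The fit was tested on simulated data. Comparisons of 1 array against 1 counted probes with a difference of 2-fold or more whose brighter spot passed the background flag. "At least N-fold" sets the higher mean against the dim group's signals, each raised to the lowest signal well above background on its array, or starts from a saturated mean. The number of arrays limits the precision.

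The members and gene lists were chosen with earlier results of these data known. The pairs of lines, the motifs, the probe overlap and the raising of dim signals to the highest array limit of -4.18 were chosen after seeing the data. All members were named by every probe, Srf, Myocd, Mrtfa, Mrtfb, Yap1, Wwtr1 and Tead1 to Tead4 always, up to 4 genes of each other list by the largest change past the threshold provided that the brighter group passed the background flag throughout, and marker lists by counts and defining genes. Postn, Fap, Fbn1, Polr2a, Hprt and B2m lie outside this rule and were named after their values were seen. Alternatives were normexp (offset 50), quantile normalization, another percentile base, other filters, 1 probe a gene, an intensity trend, slide blocks, fits within a slide, 8 groups, and leaving out lines. No protein sequence was used, and 1 probe sequence is not reported here.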

Additional observations from a re-analysis of the deposited data

Results flagged for a closer look

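Each of the 20 probes was checked for a line far from the other 8 among the 9 iPS lines, and 2 met the limit; chance gives about 1 such line in 20 sets. On the Acta2 probe A_52_P239556, Bmi1-Oct4 line 1 had a level of 0.13 while the next line was at -4.34 and the lowest at -6.10, and MEF was at -6.22, so that the gap was 0.718 of the whole range. On the Thbs1 probe A_52_P337086, tail-tip line 2 had a level of -2.26, with the next line at -6.21 and a gap of 0.712 of the range. Both spots were well above background.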

How the results depend on the processing

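Of the counts of probes called, that between the iPS lines and MEF was 10 of 20 in the model as described, 7 to 10 when 1 line was left out, 4 of 10 genes with 1 probe a gene (Ccn2, Actg2, Cnn1 and Tpm2), and 0 within the slide of MEF, where 0 of all probes passed. Between the lines and the spheres the count was 1, 1 to 2 when 1 line was left out, 2 (Ccn2 and Thbs1 A_52_P337086) without both tail-tip lines, and 0 within the slide of the spheres, where 766 of all probes passed. Bmi1-Oct4 against hedgehog-activator lines gave 1 probe (Acta2 A_52_P644232) with no filter on dim probes, a setting that called 3543 of all 41090 probes. The count of 17 probes at least 2-fold apart was 8 of 10 genes with 1 probe a gene, for ES and for the spheres against MEF, and a test with the pooled spread gave 4 for ES and 5 for the spheres. Fewer probes or samples were tested in the settings of 1 probe a gene and of 1 slide; for the other changes the cause was not tested. No difference of a probe between the lines and MEF, nor that of Ccn2 between the lines and the spheres, changed sign under a setting run; against ES, where no probe passed, the median difference of the 20 probes went from 0.45 to -0.07 with slide as a fixed block. The calls of Thbs1 A_52_P337086, Tpm2 A_52_P315976 and Actg2 held in 7 of 20, 14 of 21 and 17 of 22 settings. The clone number as a replicate block gave 0 calls in each of the 3 comparisons among iPS groups, as without it, and deviations of lines with the same number correlated at -0.151 to 0.22, so the numbers were not taken as pairing. Dim spots, saturated spots and single arrays of MEF, ES and spheres limit what the levels show.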

Other observations

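In the Bmi1 spheres Ccn2 was not alone among genes tied to SRF, YAP and TGF-β in being lower than in the iPS lines; the genes named here were chosen after their values were seen. Fhl1, an SRF-regulated LIM-domain protein, was at -7.85 in the spheres, not well above background, and between 3.70 and 5.32 in the lines, which were at least 2799-fold higher (adjusted p = 6.49e-07 in limma). Vgll3, a TEAD cofactor, was at -8.46 in the spheres and between -0.49 and 3.61 in the lines, at least 265-fold higher (adjusted p = 0.00136 in limma). Tgfb2 was at -9.02 in the spheres and between -2.75 and 0.93 in the lines, at least 50.2-fold higher (adjusted p = 0.00178 in limma). MEF, from which the spheres came, had levels of 5.28, 5.14 and 3.51 for these genes. Smad7, also listed for TGF-β, was higher in the lines by 4.15 (adjusted p = 0.0200 in limma). By list, 1 of 8 SRF and myocardin genes, 1 of 18 Hippo and YAP genes and 2 of 10 TGF-β genes were higher in the lines. Of the 20 other YAP targets 0 were, and of all probes 4.83%. Of the same 20 YAP targets, 2 were lower in the lines, where 2.41% of all probes were. Foxf2 was at -0.77 in the spheres and between -8.99 and -3.61 in the lines (adjusted p = 0.0473 in limma). Asap1 had a difference of -2.54, with a level of 3.48 in the spheres (adjusted p = 0.0123 in limma). The lists as a whole did not lie higher in the lines, with median differences of -1.12 for SRF and myocardin, -0.85 for Hippo and YAP, -0.13 for other YAP targets and -1.33 for TGF-β.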
